A study of Mus musculus with 6 samples.

Results

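The Notch, neuregulin and Hippo pathways were examined through 10 regulatory genes in infarct tissue of the mouse heart. The genes were given by name: Notch1, Notch2, Jag1 and Hey2 for Notch signaling, Nrg1, Erbb2 and Erbb4 for neuregulin signaling, and Yap1, Wwtr1 and Tead1 for the output of the Hippo pathway. The rule names the genes and uses no measured value, although they were chosen with earlier results of these data known. They are 10 of the 36047 genes to which transcripts of the files could be joined, and all 10 passed the filter on low counts that left 20094 genes for testing.

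All 6 mice were C57BL6, 12 weeks of age, and underwent ischemia/reperfusion (I/R), in which a coronary artery is closed for a time and then reopened. In the LGK-974 group, 3 mice received LGK-974, a small molecule that inhibits Porcupine, the enzyme that adds the lipid without which Wnt proteins are not secreted. In the DMSO group, 3 mice received dimethyl sulfoxide, the vehicle. The infarcted area was excised 48 h after I/R in both groups, and no uninjured heart was compared, so the values tell the treated from the vehicle infarct and not the infarct from healthy tissue. One library was made per mouse.

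Notch receptors are bound by ligands such as Jagged1 on a neighbouring cell. Proteases of the ADAM family and gamma-secretase then release the intracellular part of the receptor, which joins RBPJ in the nucleus and switches on genes of the Hes and Hey families. In the heart, neuregulin 1 is released mainly by endothelial cells and binds ErbB4 on cardiomyocytes, which signals together with ErbB2. The Hippo kinases MST and LATS phosphorylate the coactivators YAP and TAZ (the product of Wwtr1) and keep them out of the nucleus. When they enter it, YAP and TAZ act through the TEAD factors on genes such as Ccn1 and Ccn2. All 3 pathways are known from heart development and from work on cardiac injury.

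The libraries held 41579787 to 80398211 estimated counts. Mitochondrial genes took 28.2% to 53.7% of them in the LGK-974 libraries and 39.3% to 42.8% in the DMSO libraries. None of 10 cardiomyocyte markers was at 0 in any library of this heart tissue. The library of DMSO replicate 1 stood apart. Of 1501 olfactory, vomeronasal and taste receptor genes, families that serve the sense organs, 99.3% had counts in that library and 59.8% to 88.3% in the other 5. Their median was 0.627 TPM (a level corrected for transcript length and library size) in DMSO replicate 1, 0.275 in replicate 2 and 0.0882 in replicate 3. In LGK-974 replicates 1 to 3 it was 0.159, 0.0704 and 0.0918 TPM, so DMSO replicate 2 was also above each of these. Members of low level are therefore given below with and without DMSO replicate 1, which does not remove the level of DMSO replicate 2.

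All 10 genes were detected in every library. On the scale of TPM summed over the protein-coding transcripts of a gene, the order of the medians over the 6 libraries was Tead1 at 28.8, Yap1 at 15.8, Wwtr1 at 14.5, Notch1 at 5.03, Jag1 at 4.61, Notch2 at 3.20, Nrg1 at 2.13, Erbb4 at 1.31, Hey2 at 1.25 and Erbb2 at 1.24. Tead1 was above Yap1, Wwtr1 above Notch1, and Jag1 above Notch2 in 6 of 6 libraries. The order of the other neighbours was not the same in every library: Yap1 was above Wwtr1 in 5, Notch1 above Jag1 in 2, Erbb4 above Hey2 in 3, and Hey2 above Erbb2 in 4 of the 6. In DMSO replicate 1, where the receptor gene families just described also had counts, 48.4% of those 1501 genes lay above Erbb2, 39.1% above Hey2 and 36.8% above Erbb4 on this scale, but only 4.46% above Wwtr1, 4.06% above Yap1 and 1.93% above Tead1. The lower-level members were thus nearer to this background in that library than the Hippo members.

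The comparison of LGK-974 with DMSO asked which of these genes change when Wnt secretion is inhibited in the infarct. By the quasi-likelihood test of edgeR, with p-values adjusted after Benjamini and Hochberg over all genes, 0 of the 10 members passed an adjusted p of 0.05, as did 0% of all genes tested. At an unadjusted p under 0.05 the same test had 2 members, Jag1 higher and Erbb4 lower, against 13.4% of all genes (6.26% higher and 7.18% lower). DESeq2 called 0 of the 10, against 1.41% of all genes. In 2 members, Jag1 and Notch2, every LGK-974 library lay above every DMSO library, which held for 10.7% of all genes. In 2 others, Erbb4 and Hey2, every LGK-974 library lay below every DMSO library, which held for 7.27% of all genes. The median log2 difference (LGK-974 less DMSO) was 0.07 over the members and −0.13 over all genes tested.

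**Figure D1:**
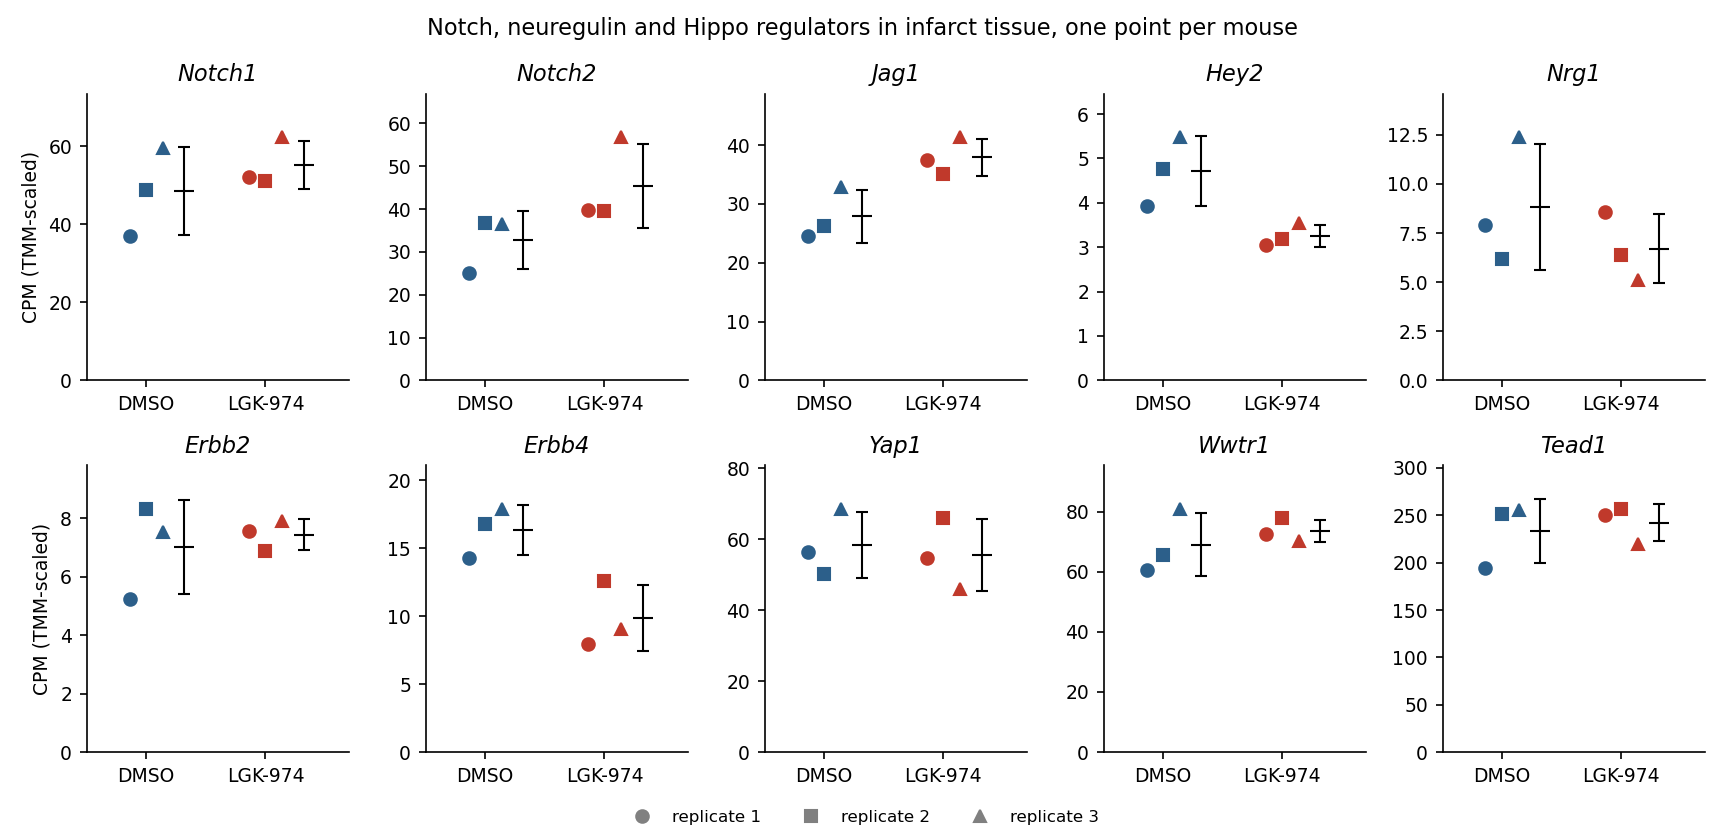
Counts scaled to library size (CPM, vertical axes, one scale per gene) of the 10 genes in each of the 3 LGK-974 and 3 DMSO libraries, with the mean and SD of each group beside the points and the marker shape giving the replicate number. The groups do not overlap for Notch2 and Jag1, higher with LGK-974, or for Hey2 and Erbb4, lower with LGK-974, and they overlap for the other 6 genes.

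Erbb4 encodes the receptor tyrosine kinase that binds neuregulin on cardiomyocytes (GRCm38 chr1:68032186-69108059, minus strand). It was at 7.97, 12.6 and 9.03 CPM in LGK-974 replicates 1 to 3 and at 14.3, 16.8 and 17.9 CPM in DMSO replicates 1 to 3. The highest treated library was below the lowest vehicle library. The means were 9.87 ± 2.42 CPM (SD, n = 3) and 16.3 ± 1.83 CPM (SD, n = 3), a log2 fold change of −0.73 (SE 0.213, unadjusted p = 0.00968, Benjamini-Hochberg adjusted p = 0.368 in edgeR). With single libraries left out, the log2 fold change lay between −0.88, without LGK-974 replicate 2, and −0.55, without DMSO replicate 3, and it was −0.80 without DMSO replicate 1. With counts scaled from TPM it was −1.24, and with protein-coding transcripts only it was −0.79. The TPM value rests in part on Erbb4-204, a noncoding transcript of 240 bases. Erbb4-204 took 47.5% of Erbb4 TPM in DMSO replicate 1, 40.8% in DMSO replicate 3 and 26.9% in LGK-974 replicate 1. These shares came from 5, 4 and 2 counts. DESeq2 gave an adjusted p of 0.146 for Erbb4.

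In bulk tissue, fewer cells of a type and less RNA per cell cannot be told apart. The summed level of 10 cardiomyocyte markers was 41791 to 58784 CPM with LGK-974 and 47138 to 65114 CPM with DMSO. Of these markers, 9 had a lower and 1, Actc1, a higher mean log2 level with LGK-974, with a median log2 difference of −0.39. Erbb4 was therefore also measured against them within each library. Its log2 CPM less the mean log2 CPM of the markers was −7.85, −7.69 and −7.65 in LGK-974 replicates 1 to 3 and −7.14, −7.27 and −7.29 in DMSO replicates 1 to 3. The groups did not overlap on this measure either. The difference was −0.50 (exact two-sided permutation test, p = 0.1, adjusted p = 0.2 over 4 such comparisons, n = 3 against 3), where 0.1 is the smallest p that 3 against 3 allows. Leaving out each library in turn gave −0.53 to −0.44.

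Nrg1, the ligand (chr8:31814551-32884029, minus strand), was at 8.59, 6.36 and 5.12 CPM with LGK-974 and at 7.92, 6.16 and 12.4 CPM with DMSO. The groups overlapped, and DMSO replicate 3 was the highest of the 6 libraries. The means of 6.69 ± 1.76 CPM and 8.82 ± 3.20 CPM (SD, n = 3 per group) gave a log2 fold change of −0.40 (SE 0.315, edgeR adjusted p = 0.531), which was −0.45 without DMSO replicate 1 and became 0.05 without DMSO replicate 3. Endothelial cells are a main source of neuregulin in the heart. Relative to 12 endothelial markers in the same library, the log2 level of Nrg1 was −0.39 apart (exact permutation test, two-sided, p = 0.2, adjusted p = 0.267, n = 3 against 3), and −0.64 to −0.19 apart with each library left out in turn. The summed level of these markers was 610 to 689 CPM with LGK-974 and 540 to 742 CPM with DMSO, with 7 of the 12 higher under LGK-974.

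Erbb2, the coreceptor that has no ligand of its own (chr11:98412470-98437716, plus strand), was at 7.55, 6.87 and 7.89 CPM with LGK-974 and at 5.23, 8.32 and 7.52 CPM with DMSO. The vehicle libraries held both the lowest and the highest value. In DMSO replicate 2, the highest, the noncoding transcript Erbb2-202 took 215 of the 402 counts. The log2 fold change was 0.08 (SE 0.229, edgeR adjusted p = 0.872) and turned to −0.07 without DMSO replicate 1. It was 0.26 with protein-coding transcripts only and 0.37 with the level of the sensory receptor genes subtracted from each library. The receptors of the pathway thus had a difference of −0.73 for Erbb4 and 0.08 for Erbb2, and whether these differ from each other was not tested.

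**Figure D2:**
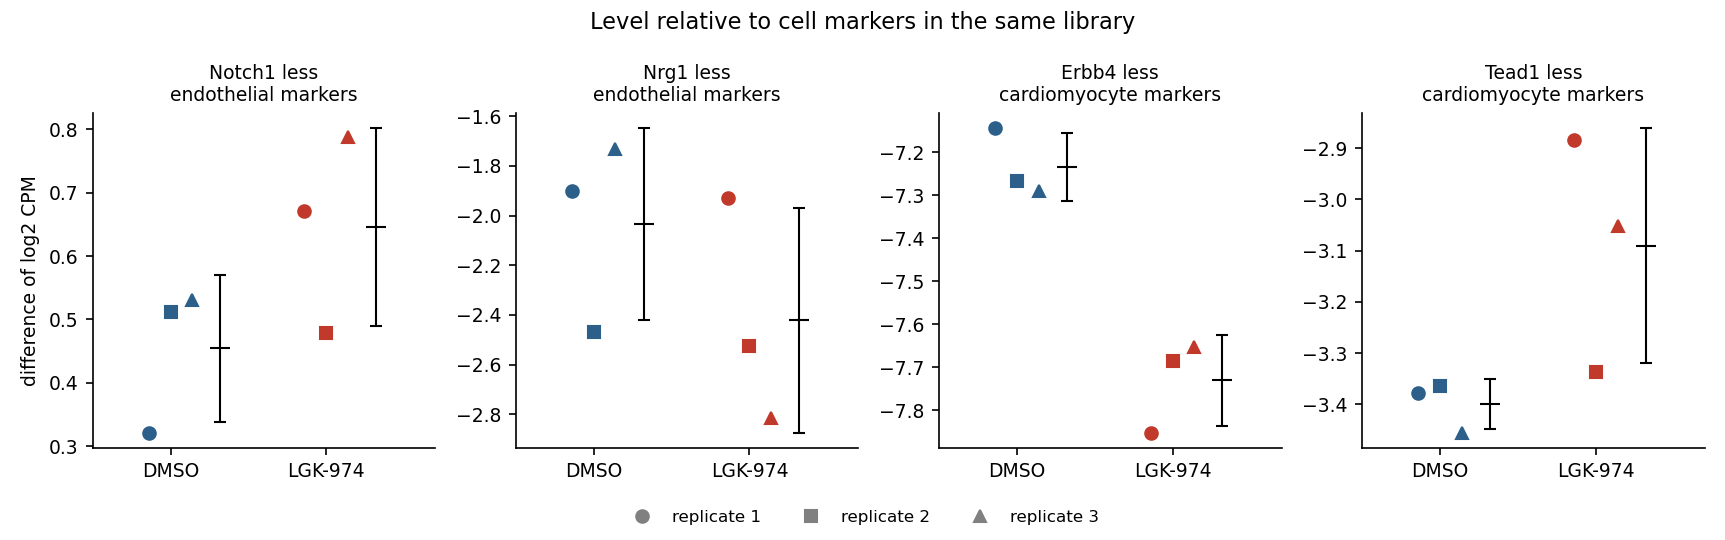
Level of Notch1 and Nrg1 less that of the endothelial markers, and of Erbb4 and Tead1 less that of the cardiomyocyte markers, in each library (vertical axes, difference of log2 CPM, not starting at 0), with the mean and SD of 3 mice beside the points and the marker shape giving the replicate number. Erbb4 is between −7.85 and −7.65 in the LGK-974 libraries and between −7.29 and −7.14 in the DMSO libraries, while the points of Notch1 and Nrg1 overlap between the groups.

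Jag1 encodes Jagged1, a membrane-bound ligand of the Notch receptors (chr2:137081456-137116644, minus strand). It was at 37.4, 35.1 and 41.3 CPM in LGK-974 replicates 1 to 3 and at 24.5, 26.3 and 33.0 CPM in DMSO replicates 1 to 3. All treated libraries were above all vehicle libraries, with LGK-974 replicate 2 and DMSO replicate 3 closest to each other. The means were 37.9 ± 3.16 CPM and 27.9 ± 4.47 CPM (SD, n = 3 per group), a log2 fold change of 0.44 (SE 0.165, unadjusted p = 0.0285, Benjamini-Hochberg adjusted p = 0.368 in edgeR). It was 0.37 without DMSO replicate 1 and 0.69 without DMSO replicate 3, the lowest and the highest of the values with a single library left out.

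Notch2, a receptor found on several cell types of the heart and on blood monocytes (chr3:98013527-98150361, plus strand), was at 39.9, 39.6 and 56.8 CPM with LGK-974 and at 25.0, 36.8 and 36.6 CPM with DMSO. The treated libraries were all higher, but LGK-974 replicates 1 and 2 lay close to DMSO replicates 2 and 3. The log2 fold change was 0.47 (SE 0.222, unadjusted p = 0.0688, adjusted p = 0.371 by edgeR), and it was 0.32 without DMSO replicate 1 and 0.34 without LGK-974 replicate 3.

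Notch1, the receptor of endothelial cells among others (chr2:26457903-26516663, minus strand), was at 52.1, 51.1 and 62.2 CPM with LGK-974 and at 37.0, 48.7 and 59.5 CPM with DMSO. The groups overlapped, with a log2 fold change of 0.19 (SE 0.205, edgeR adjusted p = 0.645) that was 0.04 without DMSO replicate 1 and 0.47 without DMSO replicate 3. Relative to the endothelial markers it differed by 0.19 (exact two-sided permutation test, p = 0.3, adjusted p = 0.3, n = 3 against 3), by 0.12 to 0.27 with each library left out in turn and by 0.42 on the TPM scale.

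Hey2, a transcriptional repressor induced by Notch and expressed in compact ventricular myocardium and arterial endothelium (chr10:30832359-30842801, minus strand), was at 3.05, 3.19 and 3.54 CPM with LGK-974 and at 3.92, 4.76 and 5.48 CPM with DMSO. The vehicle libraries were all higher, the reverse of the order seen for Jag1 and Notch2. The log2 fold change was −0.53 (SE 0.255, unadjusted p = 0.0713, adjusted p = 0.373 by edgeR), −0.64 without DMSO replicate 1 and −0.31 without DMSO replicate 3. Hey2 rested on 156 to 259 estimated counts per library. With the level of the sensory receptor genes subtracted from each library, the log2 fold change was −0.39 for Hey2 and −0.76 for Erbb4. Jag1, Notch2, Hey2 and Erbb4 kept the sign of their log2 fold change in all 16 alternative fits, 6 of which left out a library.

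The markers of other cells were measured in the same libraries. Of 11 leukocyte markers, 11 were higher with LGK-974, with a summed level of 481 to 622 CPM against 210 to 303 CPM. Of 8 fibroblast markers, 8 were higher, with a summed level of 3124 to 5357 CPM against 1587 to 2322 CPM. At an unadjusted p under 0.05 by edgeR, 10 leukocyte and 3 fibroblast markers were higher, beside 6.26% of all genes, and 0 passed an adjusted one. DESeq2 called 7 of the leukocyte and 3 of the fibroblast markers, beside 1.41% of all genes. None of these markers was at 0 in any library. The median log2 difference was 0.95 for the leukocyte and 0.54 for the fibroblast markers. The part of these cells in the higher levels of Jag1 and Notch2 was not tested. Mural cell markers were at 688 to 868 CPM with LGK-974 and 644 to 1004 CPM with DMSO, with 4 of 8 higher. Schwann cell markers were at 10.2 to 12.9 CPM against 12.3 to 24.0 CPM, with 0 of 5 higher, and epicardial markers at 6.63 to 8.85 CPM against 7.39 to 16.8 CPM, with 1 of 5 higher and Upk1b at 0 in at least 1 library. In both lists DMSO replicate 1 had the highest sum, and the other DMSO libraries were at 13.8 and 12.3 CPM for the Schwann cell and at 11.9 and 7.39 CPM for the epicardial markers.

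The 3 Hippo members were the most abundant of the genes studied and had the smallest differences together with Erbb2. Yap1, which encodes the coactivator YAP (chr9:7931999-8004596, minus strand), was at 54.5, 66.1 and 46.0 CPM with LGK-974 and at 56.4, 50.3 and 68.5 CPM with DMSO. Its log2 fold change of −0.07 (SE 0.196, edgeR adjusted p = 0.869) became 0.09 when libraries were scaled to their totals only, 0.17 without DMSO replicate 3 and 0.11 without LGK-974 replicate 3. The values of the groups were interleaved and gave no direction.

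Wwtr1, which encodes TAZ (chr3:57455649-57575910, minus strand), was at 72.7, 77.7 and 70.4 CPM with LGK-974 and at 60.7, 65.4 and 80.9 CPM with DMSO. The groups overlapped, with a log2 fold change of 0.09 (SE 0.166, edgeR adjusted p = 0.790) that was 0.33 without DMSO replicate 3. Tead1, a DNA-binding partner of both coactivators (chr7:112679318-112906807, plus strand), was at 249.9, 257 and 219.7 CPM with LGK-974 and at 195, 251 and 255 CPM with DMSO. DMSO replicate 1 was the lowest, and the log2 fold change of 0.05 (SE 0.191, edgeR adjusted p = 0.908) was −0.05 without it.

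Tead1 is expressed in cardiomyocytes, and it was also set against the cardiomyocyte markers of the same library. Which cells its counts came from was not measured. Its own log2 fold change was 0.05, beside a median log2 difference of −0.39 for the markers. Its log2 level less theirs was higher in the LGK-974 libraries by 0.31 (exact two-sided permutation test, p = 0.1, adjusted p = 0.2, n = 3 against 3), and the groups did not overlap. The difference was 0.21 to 0.43 with each library left out in turn. On the TPM scale it was 0.25 (exact permutation test, p = 0.3, n = 3 against 3), whereas the same measure for Erbb4 was −0.92 (exact permutation test, p = 0.1, n = 3 against 3). The Erbb4 value uses TPM of all transcripts, so it rests in part on the short noncoding transcript described above. In TPM of coding transcripts, Erbb4 was at 0.841, 0.980 and 1.65 with LGK-974 and at 0.941, 1.89 and 1.84 with DMSO. These groups overlapped, and the coding values were not set against the markers.

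**Figure D3:**
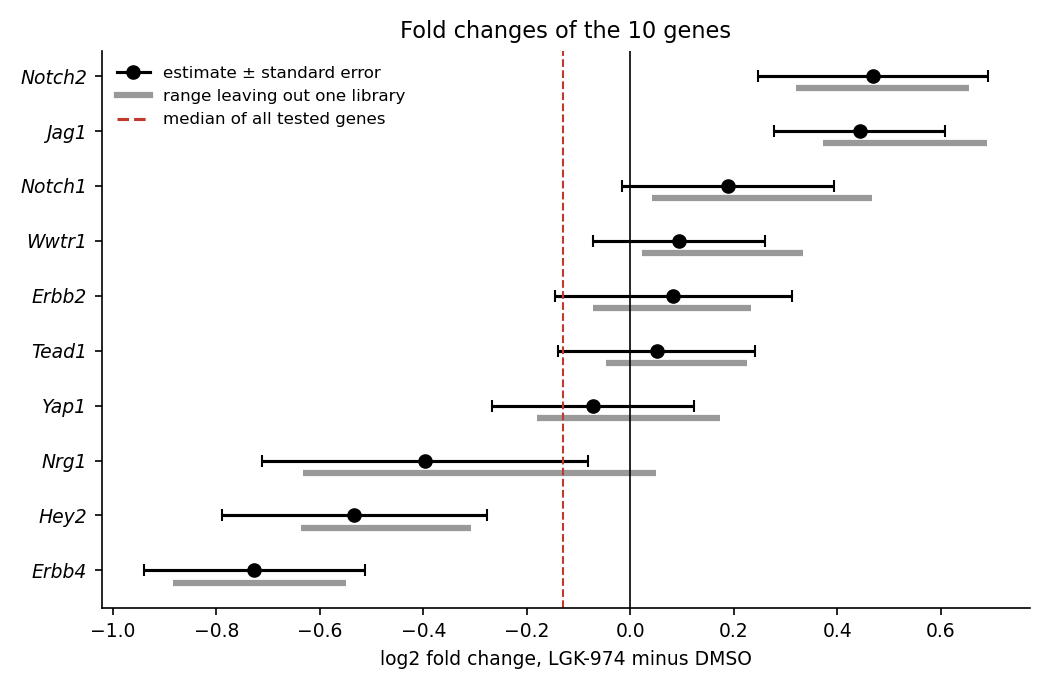
Log2 fold change (LGK-974 less DMSO, horizontal axis) of the 10 genes from the fit to all 6 libraries (points, with the standard error), the range of the values with each library left out (grey bars), and the median of all genes tested (dashed line). Erbb4, at −0.73, and Hey2, at −0.53, are below 0 and Jag1, at 0.44, and Notch2, at 0.47, above 0 in every fit, whereas the values of Nrg1, Erbb2, Yap1 and Tead1 fall on both sides of 0.

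The transcripts of a gene were compared next, because the files give a value per transcript. Yap1, Tead1 and Erbb4 each have several coding transcripts, and a pair that differs by short coding exons was picked for each gene. An exon that tells the pair apart is shown for each, since shares with and without it are given below. The Yap1 exon (chr9:7950492-7950539, minus strand, coding exon 6 of 9 of Yap1-201) is absent from Yap1-202. The Tead1 exon (chr7:112841888-112841950, plus strand, coding exon 3 of 13 of Tead1-201) is absent from Tead1-202. The Erbb4 exon (chr1:68043908-68043955, minus strand, coding exon 26 of 28 of Erbb4-201) is absent from Erbb4-202, and it is the exon of the cytoplasmic form of the receptor known to carry a binding site for phosphatidylinositol 3-kinase. All 3 are given 5′ to 3′ on the strand of the gene.
Yap1 exon: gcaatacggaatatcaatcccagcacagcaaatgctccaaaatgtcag
Tead1 exon: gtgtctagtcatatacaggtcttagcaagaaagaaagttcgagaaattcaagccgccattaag
Erbb4 exon: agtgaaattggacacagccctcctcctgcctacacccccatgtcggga

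Yap1-201, a coding form with the exon just shown, took 15.8%, 12.8% and 24.6% of the Yap1 counts in LGK-974 replicates 1 to 3 and 0%, 4.96% and 0% in DMSO replicates 1 to 3. The groups did not overlap. This transcript was singled out after its values were seen, and no test is given for it. The share of all transcripts whose groups do not overlap was not counted. The exon is also part of other Yap1 transcripts, Yap1-206 and the coding Yap1-210. Yap1-210 held 14.5% to 18.3% of the counts with LGK-974 and 16.7% to 18.1% with DMSO. Summed over all coding and nonsense-mediated-decay transcripts that span this place, the share with the exon was 76.9%, 72.5% and 77.8% of TPM with LGK-974 and 73.3%, 48.7% and 62.0% with DMSO. The groups overlapped on this measure (exact permutation test, two-sided, p = 0.2, adjusted p = 0.8 over 4 exons, n = 3 against 3). Kallisto divides reads between transcripts that share nearly all of their sequence, so the share with the exon rests on the few reads that cross it. The exon alone does not tell Yap1-201 from Yap1-206 or Yap1-210.

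The share of Erbb4 with its exon was 0%, 34.4% and 19.4% with LGK-974 and 22.5%, 1.44% and 4.11% with DMSO (exact two-sided permutation test, p = 0.7, adjusted p = 0.9, n = 3 against 3). Both groups covered much of the same range, and the form without the exon, Erbb4-202, held 62.0% to 94.1% of the Erbb4 counts in every library. For Tead1 the share with the exon shown was 42.5 ± 4.41% with LGK-974 and 41.7 ± 12.0% with DMSO (n = 3 per group, SD; exact permutation test, p = 0.9, adjusted p = 0.9). A further Tead1 exon of 12 bases was included at 50.7 ± 3.19% and 54.3 ± 12.4% (SD, n = 3 per group; exact permutation test, p = 0.7, adjusted p = 0.9). The forms of Erbb4 and Tead1 thus overlapped between the groups.

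**Figure D4:**
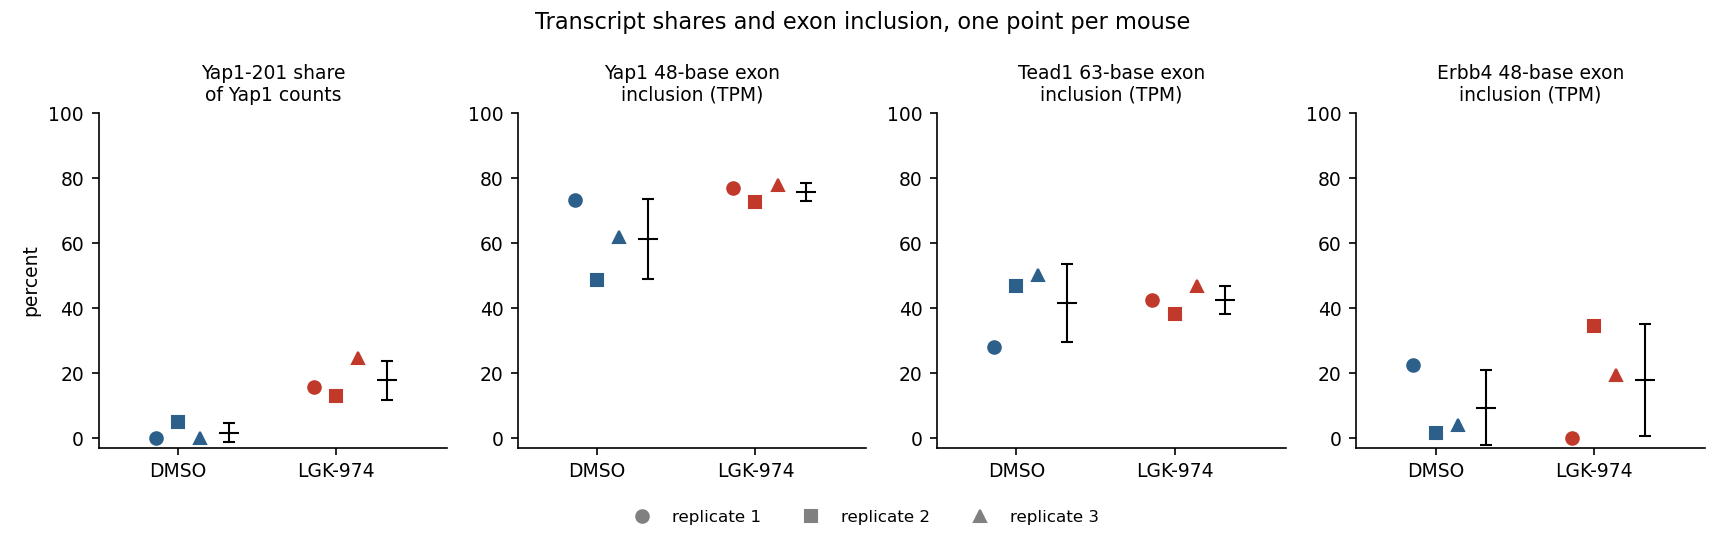
Share of Yap1 counts given to Yap1-201, and share of TPM from transcripts that include the Yap1, Tead1 (63 bases) and Erbb4 exons (vertical axes, percent), in each library with the mean and SD of 3 mice and the marker shape giving the replicate number. Yap1-201 is at 12.8% to 24.6% in the LGK-974 libraries and at 0% to 4.96% in the DMSO libraries, while the groups overlap for the 3 exons.

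The genes around the members were read from 4 lists of pathway genes, for which no call was made at an adjusted p of 0.05 by edgeR either. In the Notch list 47 of 48 genes could be tested (Hes5 could not), and 31 had a higher and 16 a lower log2 level with LGK-974, with a median of 0.09 beside −0.13 for all genes tested. At an unadjusted p under 0.05, 5 were higher (Jag1, Adam10, Adam17, Rbpj and Hes1, the last named after its values were seen) and 0 lower, beside 6.26% and 7.18% of all genes. The number was 11 without DMSO replicate 3, where 23.2% of all genes passed, and 1 to 3 without any other single library, where 4.16% to 13.4% passed, and the median was 0.29 without DMSO replicate 3. By role, 9 of 10 genes of receptor processing had a higher log2 level, with a median of 0.19, and 8 of 10, with a median of 0.13, without DMSO replicate 1. Of 7 ligands, 6 had a lower log2 level, with a median of −0.18, and 5, with a median of −0.15, without DMSO replicate 1, and Jag1 was the 1 that was higher with all libraries. Among the 6, Dlk1, Dlk2 and Dll3 were low, at means of 0.227, 0.202 and 0.766 CPM with LGK-974 and 0.512, 0.345 and 1.32 CPM with DMSO. Each of these was highest in DMSO replicate 1. The log2 fold change was only −0.03 for Dll4 and −0.09 for Dll1.

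Rbpj, the DNA-binding partner of the released receptor, was at 86.7 ± 9.39 CPM with LGK-974 and 56.7 ± 8.01 CPM with DMSO (SD, n = 3 per group), a log2 fold change of 0.61 (SE 0.174). Adam17, a protease that sheds membrane proteins, was at 44.8 ± 3.84 CPM and 32.5 ± 3.001 CPM, a log2 fold change of 0.46 (SE 0.150). Adam10, the protease that makes the ligand-dependent cut in Notch, was at 91.5 ± 8.53 CPM and 66.2 ± 9.88 CPM, a log2 fold change of 0.47 (SE 0.174). The groups did not overlap for any of these genes, with LGK-974 higher, as for 10.7% of all genes. The 3 were named for their small p in these same libraries, so this adds no support of its own. Each of them had an adjusted p of 0.368 by edgeR.

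In the neuregulin and ErbB list, 17 of 33 genes had a higher and 16 a lower log2 level with LGK-974, and the median of 0.03 turned to −0.05 without DMSO replicate 1 and to −0.036 with protein-coding transcripts only. At an unadjusted p under 0.05, 2 were higher and 2 lower by edgeR, 4 in all, beside 13.4% of all genes. The number became 2 without LGK-974 replicate 1 or 2, where 8.13% and 9.28% of all genes passed, and 1 without LGK-974 replicate 3, where 4.16% passed. Of 11 ligands, 9 had a lower log2 level, with a median of −0.43, and 8, with a median of −0.18, without DMSO replicate 1, the library with counts at most sensory receptor genes. The mean levels of these 9 were low, at 0.145 to 6.69 CPM with LGK-974 and 0.497 to 8.82 CPM with DMSO. Hbegf, a ligand of the EGF receptor and of ErbB4, was higher, at 45.5 ± 9.87 CPM against 28.8 ± 8.57 CPM (SD, n = 3 per group; log2 fold change 0.66, SE 0.254). Its groups overlapped. Pik3r1, a regulatory subunit of phosphatidylinositol 3-kinase, was lower together with Erbb4, at 129 ± 26.9 CPM with LGK-974 and 199.5 ± 41.9 CPM with DMSO (SD, n = 3 per group; log2 fold change −0.63, SE 0.234). Its groups did not overlap, as for 7.27% of all genes in this direction. Pik3r1 was named for its small p in these same libraries. Without DMSO replicate 3 its value was −0.33.

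In the Hippo list, 25 of 37 genes had a higher and 12 a lower log2 level, with a median of 0.09 (0.31 without DMSO replicate 3), and 6 were higher and 0 lower at an unadjusted p under 0.05 by edgeR, beside 6.26% and 7.18% of all genes. In the kinase cascade 10 of 11 genes had a higher log2 level, with a median of 0.21, and 9 of 11, with a median of 0.12, without DMSO replicate 1. Mob1a, the coactivator of the LATS kinases, was at 47.7 ± 3.78 CPM with LGK-974 and 29.1 ± 4.71 CPM with DMSO, a log2 fold change of 0.72 (SE 0.169). Fat1, an atypical cadherin upstream of the cascade, was at 155 ± 28.6 CPM and 88.1 ± 14.7 CPM (log2 fold change 0.82, SE 0.211), and Vgll3, a cofactor that binds TEAD in place of YAP, was at 17.7 ± 1.92 CPM and 11.4 ± 0.696 CPM (log2 fold change 0.64, SE 0.157). DESeq2 gave Mob1a an adjusted p of 0.0476 and Fat1 one of 0.0307, and called no other gene of this list, beside 1.41% of all genes. Leukocyte and fibroblast markers were higher in the same libraries, and their part in these values was not tested.

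Among 22 known target genes of YAP and TEAD, 16 had a higher and 6 a lower log2 level with LGK-974, with a median of 0.23 (0.38 without DMSO replicate 3 or without LGK-974 replicate 2). At an unadjusted p under 0.05, 4 were higher and 1 lower by edgeR, beside 6.26% and 7.18% of all genes. Tgfb2, a secreted growth factor, was at 84.7, 52.9 and 89.2 CPM with LGK-974 and at 27.3, 38.7 and 30.8 CPM with DMSO, a log2 fold change of 1.23 (SE 0.243). Ccn2, a matricellular protein made by fibroblasts and other cells, was at 391, 268 and 447 CPM and at 146, 239 and 167 CPM, a log2 fold change of 1.004 (SE 0.277). Myof, a membrane repair protein, was at 73.0 ± 10.02 CPM and 43.2 ± 6.08 CPM (SD, n = 3 per group), a log2 fold change of 0.76 (SE 0.179). In each of the 3 genes all LGK-974 libraries were above all DMSO libraries, as in 10.7% of all genes. The 3 were named for their small p in these same libraries, so this adds no support of its own. The adjusted p by edgeR was 0.368 for each, and by DESeq2 it was 0.00198 for Tgfb2, 0.0195 for Ccn2 and 0.0297 for Myof, the 3 genes of this list that DESeq2 called beside 1.41% of all genes. The coactivators themselves had log2 differences of −0.07 and 0.09. Fibroblast markers were higher beside these targets, with the values given above, and their part in them was not tested.

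**Figure D5:**
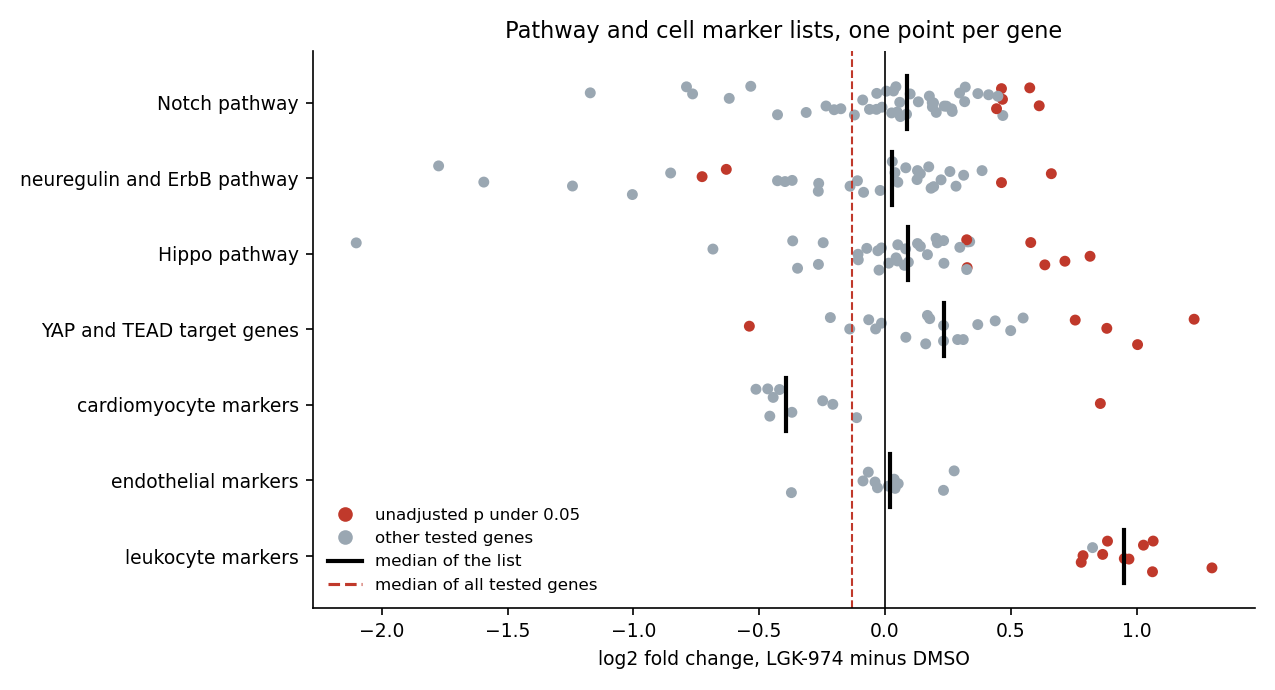
Log2 fold change (LGK-974 less DMSO, horizontal axis) of each tested gene, members included, in the 4 pathway lists and in the cardiomyocyte, endothelial and leukocyte marker lists, in red at an unadjusted p under 0.05, with a black bar at the median of each list and a dashed line at that of all genes tested (−0.13). The medians are 0.09 for Notch, 0.03 for neuregulin and ErbB, 0.09 for Hippo and 0.23 for the YAP and TEAD targets, and −0.39, 0.02 and 0.95 for the marker lists in the order named.

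The genes most like a member were found as those whose log2 CPM, centred on its own mean, had the smallest root mean square difference from the member over the 6 libraries. For Erbb4 they were Rxrg, a retinoid X receptor, at 0.0618, Cutc at 0.0687 and Pank1, an enzyme of coenzyme A synthesis, at 0.0940. For Jag1 they were Filip1l at 0.0340, Adam10 at 0.0420 and Rars2, a mitochondrial arginyl-tRNA synthetase, at 0.0446. For Notch2 they were Tmem184b at 0.0207, Prkcsh at 0.0457 and Ppp1r15b at 0.0464. Adam10 thus came up both in the Notch list and as a gene with nearly the profile of Jag1, and with 6 libraries such likeness is a description only.

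Promoters were read from RefSeq (GRCm38.p6, from 250 bases before to 50 after the start of transcription), and 8 of the 10 members matched an entry, all but Nrg1 and Tead1. In these, 3 short motifs were searched on both strands: GGAATG, bound by TEAD factors, TGGGAA, the core bound by RBPJ, and CTTTGA, the core bound by TCF/LEF factors of the Wnt pathway. The TEAD letters occurred in 5 of the 8 members (Notch1, Hey2, Erbb2, Yap1 and Wwtr1) and in 14.7% of the 32851 promoters. The RBPJ letters occurred in 1 of the 8, Hey2, and in 25.6% of promoters, and the TCF/LEF letters in 2 of the 8, Jag1 and Wwtr1, and in 16.0% of promoters. TGGGAA and GGAATG can share 4 letters, as they do in Hey2. The stretches upstream of the annotated exons, 5′ to 3′ on the strand of the gene, are given for Hey2 (chr10:30842802-30843033, minus strand), the Notch target, with the shared TEAD and RBPJ letters in capitals, Wwtr1 (chr3:57575911-57576160, minus strand), with its TCF/LEF and TEAD letters in capitals, and Erbb4 (chr1:69108060-69108309, minus strand), the member with the largest difference, which held none of these letters.
Hey2: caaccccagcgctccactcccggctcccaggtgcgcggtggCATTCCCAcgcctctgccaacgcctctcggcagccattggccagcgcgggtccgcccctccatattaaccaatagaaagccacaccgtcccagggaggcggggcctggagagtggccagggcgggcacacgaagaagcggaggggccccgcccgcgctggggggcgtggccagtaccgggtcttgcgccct
Wwtr1: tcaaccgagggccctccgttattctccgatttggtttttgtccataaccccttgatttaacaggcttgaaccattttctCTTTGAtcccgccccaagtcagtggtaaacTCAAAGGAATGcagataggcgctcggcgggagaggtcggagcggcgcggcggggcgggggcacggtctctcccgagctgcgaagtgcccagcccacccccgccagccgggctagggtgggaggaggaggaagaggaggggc
Erbb4: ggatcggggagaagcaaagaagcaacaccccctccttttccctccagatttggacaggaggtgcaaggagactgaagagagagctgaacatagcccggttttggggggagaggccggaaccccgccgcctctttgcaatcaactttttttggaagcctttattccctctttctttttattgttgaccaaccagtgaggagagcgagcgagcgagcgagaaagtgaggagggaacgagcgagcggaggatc

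In Hey2 the capitals read the TEAD and RBPJ letters on the opposite strand, at −209 and −207 from the start, counted to the first base of the match on the strand shown. A further RBPJ match of Hey2 at −3 and the TCF/LEF match of Jag1 at 24 lie outside the stretches shown. In Wwtr1 the TCF/LEF letters lie at −171 and, on the opposite strand, at −141, where their end overlaps the TEAD letters at −136. A match is a description of letters and not of binding, which was not measured here.

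Some exons of the members overlap those of other annotated genes, and the counting was not stated to use strand, so reads there could not be assigned to either gene with certainty. The overlap was 1068 bases of Notch1 with 0610009E02Rik and 414 with Gm13568, 541 bases of Notch2 with Gm42820, 482 of Nrg1 with Gm26578, 116 of Yap1 with Gm20416 and 9 of Erbb2 with Mien1. Notch2 and Gm42820 lie on the same strand, so strand use could not tell them apart, whereas the other pairs lie on opposite strands. Exons of Jag1, Hey2, Erbb4, Wwtr1 and Tead1 overlapped no exon of another gene.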

How the data were processed

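RNA-seq data of the infarcted area from 3 LGK-974 and 3 DMSO mice were used, grouped by the sample labels. RNA was extracted with Trizol, and the library steps named are ribosomal depletion (RiboZero) and TrueSeq RNA Access, a capture of coding sequence. The authors quantified transcripts with Kallisto on a GRCm38 index and deposited, for each transcript, an estimated count, which need not be whole, and a TPM value, which is scaled to transcript length. The version of Kallisto, read trimming and strand use are not given in the sources used here.

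Of 118489 transcripts, 116816 were joined to genes through GENCODE M21 (GRCm38), with 99.6% to 99.7% of counts. The counts of a gene's transcripts were summed, then rounded. CPM used TMM-scaled library sizes. A gene was kept with 10 or more counts in 3 or more libraries and tested with edgeR 4.0.16 (quasi-likelihood, R 4.3.3), with treatment as the only factor, Benjamini-Hochberg adjustment over all genes tested and a threshold of 0.05. DESeq2 1.42.0 and limma 3.58.1 (voom) were alternatives. Levels between genes were compared in TPM of coding transcripts. Marker differences used log2 CPM with a prior count of 0.5, or log2 of TPM with a pseudocount of 0.1. Exact permutation tests used all splits of 6 mice. The permutation tests were run in Python 3.11.15 with SciPy 1.17.1. The edgeR, DESeq2 and limma fits were tried on simulated data, and the permutation tests were not.

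Depth was 41579787 to 80398211 estimated counts. Precision is limited by the number of mice and, for genes with few counts, by depth. Reads that Kallisto divides between similar transcripts stay divided. Named were the 10 members, up to 3 other genes of each pathway list with the smallest p, and the 3 genes (mean CPM of at least 1) most like each of the 3 members with the smallest p. The members and lists were chosen with earlier results of these data known. Each mouse is a separate animal. Alternatives changed the normalization, test, filter, unit, gene and transcript types, background, replicate block and samples.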

Additional observations from a re-analysis of the deposited data

How the results depend on the processing

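Of 160 values of the members under 16 alternatives, 149 kept their direction and their side of the threshold and 11 reversed, all in genes with an edgeR adjusted p of 0.531 or above. Yap1 reversed to a log2 fold change of 0.070 without the filter on low counts and 0.092 with library totals in place of TMM. Wwtr1 reversed to −0.0094 with background subtracted. Tead1 reversed to −0.0065 with counts scaled from TPM, −0.073 with background subtracted and −0.0038 with protein-coding transcripts only. With each library left out in turn, the range was −0.63 to 0.049 for Nrg1, −0.072 to 0.23 for Erbb2, −0.18 to 0.17 for Yap1 and −0.047 to 0.23 for Tead1. In the 4 members whose groups did not overlap, alternatives that kept all libraries moved the log2 fold change by over 1.5 times for Erbb4, to −1.24, with counts scaled from TPM, and for Notch2, to 0.71, Jag1, to 0.67, and Hey2, to −0.32, with library totals. Subtraction of background, library totals and protein-coding transcripts were chosen after seeing the data.

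The number of genes called over the whole table was 0 by edgeR, 315 by DESeq2, 1206 by edgeR without the filter, and 0 to 2 with a library left out, 2 being the value without DMSO replicate 1. At an unadjusted p under 0.05, edgeR had 2699 genes. Library totals in place of TMM moved the median log2 fold change of all genes tested from −0.13 to 0.08 and the list medians to 0.32 (Notch), 0.24 (neuregulin and ErbB), 0.29 (Hippo) and 0.45 (YAP and TEAD targets). Without the filter the medians were 0.16 for neuregulin and ErbB and 0.24 for Hippo. With a library left out they were 0.041 to 0.29, −0.054 to 0.17, 0.048 to 0.31 and 0.17 to 0.38 in the same order. At an unadjusted p under 0.05, the Notch list had 3 genes with counts scaled from TPM, where 2004 of 20459 genes passed. With library totals, where 2373 of 20094 genes passed, it had 1 gene, as did the neuregulin and ErbB list. With a library left out, these lists had 1 to 11 and 1 to 5 genes, where 4.16% to 23.2% of all genes passed. The causes of these changes were not tested.

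Both groups carry replicate numbers 1 to 3. Correlations of deviations from the group means were 0.477, −0.0446 and 0.421 for same-numbered libraries. For libraries of different numbers they were −0.531 to 0.157. These values do not settle whether the numbers pair the mice, which the sample titles do not state. With the replicate block edgeR still called 0 genes, had 3312 genes at an unadjusted p under 0.05, and gave log2 fold changes of −0.75 for Erbb4 and 0.45 for Jag1. Genes with few counts, such as Hey2, and transcript shares are limited by depth.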
